A study of Homo sapiens with 4 samples.

Results

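The genes described here are 38 autosomal genes known to be imprinted, that is, expressed from 1 parental copy in at least some tissues. They were taken as a list of gene names, and all 38 were found among the 56742 autosomal gene records of the GRCh38 annotation used. SLC22A18 was found through a synonym of the current symbol. By biotype, 31 of them are protein-coding and 7 are long non-coding RNAs, and they lie in 18 loci. From textbook knowledge, 25 are expressed from the paternal and 13 from the maternal copy. The study profiled MCF10A, an immortalised line of human breast epithelium that does not form tumours, grown with 100 ng/ml cholera toxin. Chromatin immunoprecipitation and sequencing gave 1 library for each of 3 marks of histone H3: H3K4me3, H3K27me3 (both trimethylated lysines) and H3K79me2 (a dimethylated lysine). The input DNA library of the series has no peak list here. The line stands for 1 source of cells, and the 3 marks are the only groups.

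H3K4me3 lies over the starts of active or poised genes, H3K79me2 is laid down by DOT1L over the first part of transcribed genes, and H3K27me3 is the repressive mark of Polycomb. Imprinting is set in the germline as DNA methylation of CpG islands, mostly in the egg, and the KRAB zinc finger proteins ZFP57 and ZNF445 keep that methylation in the embryo. In such an island the methylated copy usually lacks H3K4me3 while the unmethylated copy carries it, and a long non-coding RNA from the island can silence neighbouring genes in cis.

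A gene was counted as marked when at least 1 peak with a q of 0.05 or below shared at least 1 bp with its record or the 5000 bp on either side. The value given is the fold enrichment of the strongest such peak, as the peak caller wrote it. Each mark has no replicate, so no value has an error and no difference has a test. The lists do not give read depth, which leaves the values without counting intervals, and folds of different marks are on different scales. The peaks do not tell the alleles apart. Marks on 1 copy in all cells and on both copies in part of the cells cannot be told apart either. As a check of the cell type, 8 markers were read, those of basal breast epithelium and the general epithelial marker CDH1. All 8 carried H3K4me3, 7 (all but CDH1) carried H3K79me2 and 2, EGFR and TP63, carried H3K27me3. Of 12 markers of luminal, leukocyte, endothelial and fibroblast cells, 6 carried H3K4me3, 5 carried H3K27me3 and 1, PECAM1, carried H3K79me2. Over all autosomal protein-coding genes the shares were 79.3% for H3K4me3, 56.9% for H3K79me2 and 25.6% for H3K27me3. H3K4me3 at all 8 basal or general epithelial markers is therefore a weak check.

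Imprinted genes carried the 3 marks at rates near those of other genes. H3K4me3 was called at 28 of the 38 genes, H3K79me2 at 18 and H3K27me3 at 12. Among the 31 protein-coding genes, 24 (77.4%) had H3K4me3, against 79.3% of the 19126 autosomal protein-coding genes. H3K79me2 was called at 16 of them (51.6%), against 56.9%, and H3K27me3 at 10 (32.3%), against 25.6%. Each share lay within 7 percentage points of the share of all protein-coding genes. Of the 7 non-coding RNAs, 4 carried H3K4me3 (H19, KCNQ1OT1, HYMAI and PEG13; 41.9% of 17795 autosomal long non-coding RNA genes), 2 H3K79me2 (HYMAI and AIRN; 20.9%) and 2 H3K27me3 (KCNQ1OT1 and MEG8; 24.4%).

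H3K4me3 and H3K27me3 together were found in the windows of 8 genes: IGF2, KCNQ1, KCNQ1OT1, SGCE, PPP1R9A, PLAGL1, ZDBF2 and KCNK9. The 7 protein-coding ones among these are 22.6%, against 17.3% of protein-coding genes. Peaks of the 2 marks shared bases at only 4 of the 38 genes, IGF2, PPP1R9A, PLAGL1 and ZDBF2. That is 12.9% of the protein-coding members, against 6.53%. Among the non-coding RNAs, KCNQ1OT1 had both marks in its window (8.88% of long non-coding RNA genes), and 0 of 7 had shared bases (2.45%). H3K4me3 with H3K79me2 was the commonest combination, at 16 genes, 15 of them protein-coding (48.4%, against 55.9%), and the other was HYMAI (18.2% of long non-coding RNA genes). At all 16 genes an H3K4me3 peak shared bases with an H3K79me2 peak. The 15 protein-coding ones are 48.4% of the members, against 53% of protein-coding genes, and among protein-coding genes with both marks the peaks shared bases in 94.8%. None of the 3 marks was called at PEG3, MEG3, NDN and MAGEL2. The 3 protein-coding ones are 9.68%, against 11.6%, and 40.2% of long non-coding RNA genes were without a call, as MEG3 was.

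**Figure D1:**
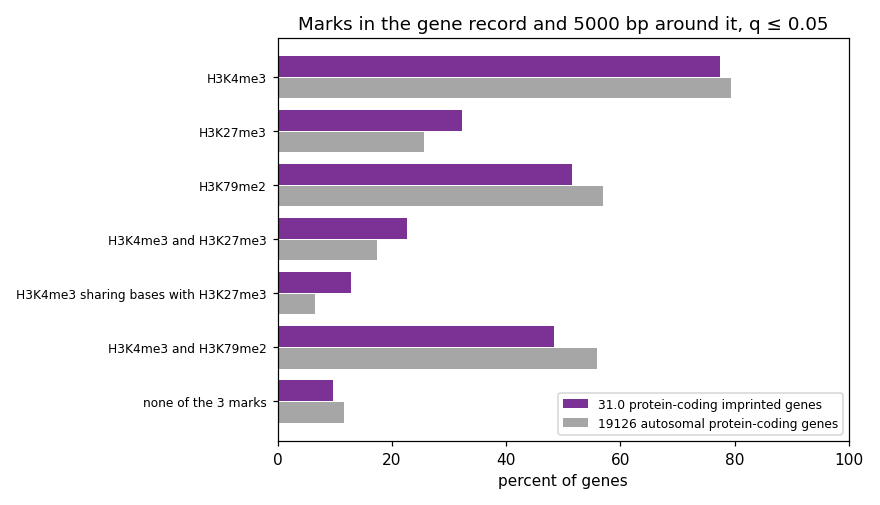
Percent of genes (x axis) with each mark or combination of marks in the record and 5000 bp around it, for the 31 protein-coding imprinted genes and the 19126 autosomal protein-coding genes. The single marks differ little, with H3K4me3 at 77.4% against 79.3%, and the pair furthest apart in proportion is H3K4me3 sharing bases with H3K27me3, at 12.9% (4 genes) against 6.53%.

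Gene length sets how many peaks a window can meet, so the shares were also read by window length. In windows under 20000 bp, H3K4me3 was called at 4 of 7 protein-coding members (62.7% of protein-coding genes of that class), H3K27me3 at 1 (20.2%) and H3K79me2 at 2 (41.1%). From 20000 to under 50000 bp the counts were 8 of 11 (80.9%), 4 (18.7%) and 5 (59.9%). From 50000 to under 150000 bp they were 6 of 7 (89.6%), 3 (27.7%) and 5 (67.9%). At 150000 bp or more they were 6 of 6 (91.8%), 2 (55.9%) and 4 (61.3%). In each class of length the members' counts for a mark lay within 2 genes of the number that share would give. By parental origin, among protein-coding members, H3K4me3 was called at 14 of 21 paternally and 10 of 10 maternally expressed genes (79.3% of protein-coding genes). For H3K27me3 these counts were 7 and 3 (25.6%), and for H3K79me2 9 and 7 (56.9%). Of the non-coding RNAs, 3 of 4 paternally and 1 of 3 maternally expressed ones had H3K4me3 (41.9% of long non-coding RNA genes). Neighbours often shared their strongest peak: the 28 genes with H3K4me3 had 23 distinct leading peaks, the 12 with H3K27me3 had 10, and the 18 with H3K79me2 had 12.

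**Figure D2:**
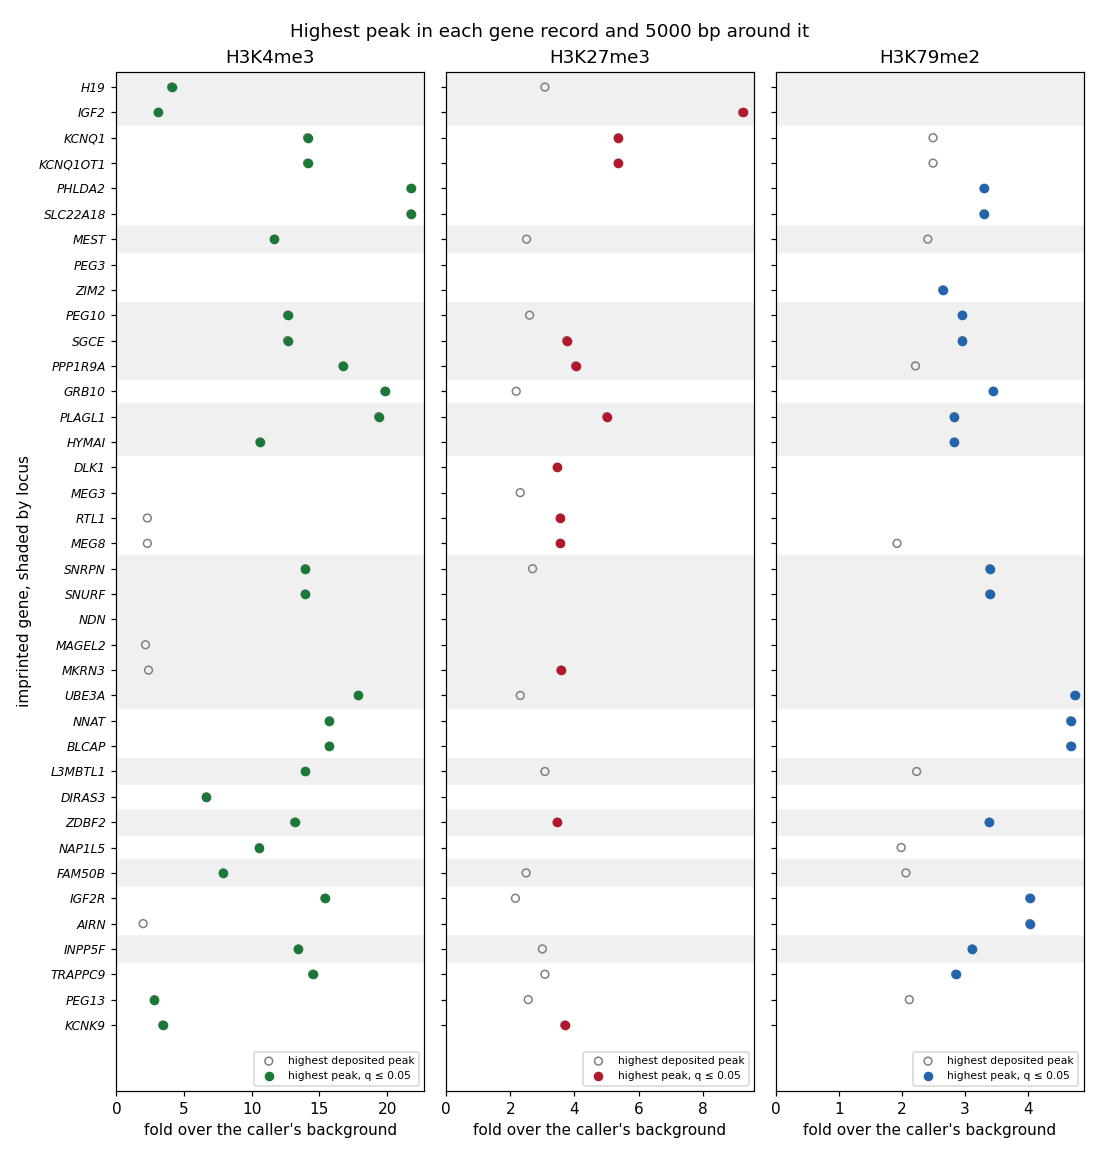
Fold over the caller's background (x axes) of the strongest peak in the window of each imprinted gene (rows, shaded by locus), for the 3 marks. Filled points are peaks with a q of 0.05 or below and open points the strongest deposited peak. PHLDA2 and SLC22A18 have the highest H3K4me3 fold, 21.8, IGF2 the highest H3K27me3 fold, 9.24, and UBE3A the highest H3K79me2 fold, 4.74.

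Among annotated starts with H3K4me3, those picked as lying inside CpG islands methylated on the maternal copy had lower folds than most. The mark was found at 8 of these 9 starts (88.9%), at 20 of 35 other starts of imprinted genes (57.1%) and at 68.6% of protein-coding starts. The differences were not tested. Starts of 1 gene are not independent: the 35 lie in 19 genes, and the 15 without the mark in 9 genes. The 9 starts in such islands were picked from textbook knowledge after the values were seen: SNURF (shared with SNRPN), the inner starts of PLAGL1 (shared with HYMAI), MEST, GRB10, L3MBTL1 and INPP5F, and the starts of DIRAS3, NAP1L5 and FAM50B. The AIRN start, with 2 CpG and 31.6% G and C in the 250 bases before it, was counted among the 35. It had no H3K4me3 within 1000 bp, so counting it among the picked starts instead would lower the share of 88.9%. The 14 genes without an annotated start could not enter, so any such island there is not represented. Of these, KCNQ1OT1, PEG10 and NNAT had 14.1, 12.6 and 15.7-fold H3K4me3 in their windows, and PEG3 had none. The sequences below show what such a start looks like and, for PLAGL1 and GRB10, the outer start with the highest H3K4me3 fold of the same gene, chosen for that. They are the 250 bases before each start, from RefSeq on GRCh38.p14, written 5′ to 3′ on the gene's strand, with start positions of 24 of the 38 genes in the table used. Capitals mark TGCCGC or its reverse complement GCGGCA, the hexamer bound by ZFP57 when its CpG is methylated. One or more matches occurred in 3 of the 9 starts (SNURF, PLAGL1 and NAP1L5), in 10 of 35 other starts of these genes and in 15.3% of 21156 starts of protein-coding genes. The 10 include all 3 MEG3 starts (chr14:100826108, 100826118 and 100826132), whose overlapping windows hold the same match. The 2 forms of the hexamer are 1 motif read on both strands, a match is a description and not a binding site, and lower case throughout says only that the letters are not in that window.

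PLAGL1 inner start, chr6:144008260-144008509, minus strand: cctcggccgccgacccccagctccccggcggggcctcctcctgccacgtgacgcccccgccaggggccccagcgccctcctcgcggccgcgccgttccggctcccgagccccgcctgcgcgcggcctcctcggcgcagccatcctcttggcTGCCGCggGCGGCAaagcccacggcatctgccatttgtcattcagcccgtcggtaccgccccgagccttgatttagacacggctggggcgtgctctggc
PLAGL1 outer start, chr6:144064600-144064849, minus strand: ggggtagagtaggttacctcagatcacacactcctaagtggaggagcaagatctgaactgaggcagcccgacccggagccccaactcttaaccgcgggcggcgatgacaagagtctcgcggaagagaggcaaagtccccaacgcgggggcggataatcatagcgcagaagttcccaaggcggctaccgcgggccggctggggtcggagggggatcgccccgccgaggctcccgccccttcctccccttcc
GRB10 inner start, chr7:50782897-50783146, minus strand: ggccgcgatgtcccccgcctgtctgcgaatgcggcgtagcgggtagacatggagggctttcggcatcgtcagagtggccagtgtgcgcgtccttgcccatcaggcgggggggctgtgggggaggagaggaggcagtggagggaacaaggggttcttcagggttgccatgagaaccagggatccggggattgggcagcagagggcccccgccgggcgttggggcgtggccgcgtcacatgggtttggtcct
GRB10 outer start, chr7:50793454-50793703, minus strand: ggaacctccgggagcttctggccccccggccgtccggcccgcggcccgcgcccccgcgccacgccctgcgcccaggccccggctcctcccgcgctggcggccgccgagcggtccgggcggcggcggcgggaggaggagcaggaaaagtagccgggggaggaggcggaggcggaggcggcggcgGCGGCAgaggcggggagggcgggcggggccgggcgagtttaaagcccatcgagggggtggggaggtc
SNURF, chr15:24954737-24954986, plus strand: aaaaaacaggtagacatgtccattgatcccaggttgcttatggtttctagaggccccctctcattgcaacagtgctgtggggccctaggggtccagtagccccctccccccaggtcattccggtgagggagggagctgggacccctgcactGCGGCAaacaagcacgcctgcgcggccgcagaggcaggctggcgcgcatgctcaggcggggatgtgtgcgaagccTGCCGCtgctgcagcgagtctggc
NAP1L5, chr4:88697830-88698079, minus strand: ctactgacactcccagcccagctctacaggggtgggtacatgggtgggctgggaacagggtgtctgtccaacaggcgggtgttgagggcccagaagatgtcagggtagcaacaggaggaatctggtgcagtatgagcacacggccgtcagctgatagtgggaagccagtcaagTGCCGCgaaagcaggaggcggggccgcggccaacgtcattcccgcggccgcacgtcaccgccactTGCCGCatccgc
INPP5F inner start, chr10:119819019-119819268, plus strand: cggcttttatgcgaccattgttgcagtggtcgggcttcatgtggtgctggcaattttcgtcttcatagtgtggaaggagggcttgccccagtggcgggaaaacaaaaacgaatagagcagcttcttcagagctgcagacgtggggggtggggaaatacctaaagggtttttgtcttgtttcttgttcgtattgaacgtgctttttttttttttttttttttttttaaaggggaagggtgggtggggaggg

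CpG content varied among these windows. The ratio of observed to expected CpG was 0.94 at the inner and 0.80 at the outer PLAGL1 start, 0.72 and 0.91 at GRB10, 0.48 at SNURF, 0.64 at NAP1L5 and 0.77 at the inner INPP5F start, whose window holds 9 CpG and 46.8% G and C. The median was 0.64 over the 9 starts, 0.67 over 35 other starts of imprinted genes and 0.72 over starts of all protein-coding genes. The 35 include 15 starts without H3K4me3 and the 9 include 1. These medians therefore do not describe the CpG content of the marked starts alone, whose folds are compared.

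H3K4me3 was scored within 1000 bp of a start, where 68.6% of protein-coding starts had it. At the 8 marked starts in maternally methylated islands the folds, from lowest to highest, were 5.07 at MEST, 6.64 at DIRAS3, 7.89 at FAM50B, 7.96 at GRB10, 10.6 at NAP1L5, 10.6 at PLAGL1, 13.9 at SNURF and 13.96 at L3MBTL1, with a median of 9.26. All 8 were under 16.3, the median over protein-coding starts with H3K4me3, and 6 were under 13, its lower quartile. The 20 other starts with H3K4me3 had folds from 4.07 at H19 to 19.8 at GRB10 and a median of 15.6. Several of those starts share a peak: over 12 distinct peaks the median was 14.4. The sets overlapped, since 6 of the 20 other starts, in H19, L3MBTL1, SLC22A18 and MEST, were also under 13. A further 3 starts, lying within 2000 bp of the MEST and SNURF starts, were kept apart. None of the 9 starts had H3K27me3 within 1000 bp (7.63% of protein-coding starts did), and 3, at GRB10, PLAGL1 and SNURF, had H3K79me2 (48% did).

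**Figure D3:**
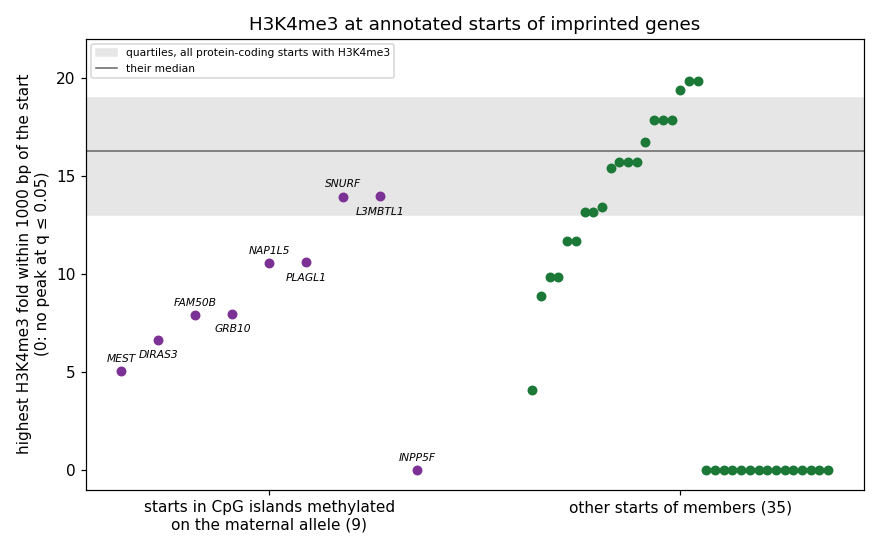
Highest H3K4me3 fold within 1000 bp of each annotated start (y axis, 0 where no peak had a q of 0.05 or below), for the 9 starts in maternally methylated CpG islands and 35 other starts of imprinted genes, in order of fold. The grey band holds the middle quartiles, 13 to 18.99, of protein-coding starts with the mark; 6 of the 8 marked starts on the left lie under it.

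Both kinds of start were annotated in 6 genes, and in 4 of them both kinds had H3K4me3. PLAGL1, a zinc finger transcription factor linked to transient neonatal diabetes, had an H3K4me3 peak of 10.6-fold over its inner start (chr6:144004561-144008795, 4235 bp wide) and one of 19.4-fold over its outer start (chr6:144063190-144065144). GRB10, an adaptor that restrains signalling from the insulin and IGF1 receptors, had 7.96-fold over the inner start (chr7:50781962-50783117, 1156 bp) and 19.8-fold over the outer (chr7:50790432-50794003, 3572 bp). MEST, a member of the alpha/beta hydrolase family, had 5.07-fold over the inner start (chr7:130491711-130492502, 792 bp) and 11.7-fold over the outer (chr7:130485685-130488028, 2344 bp). In these 3 genes the start in the methylated island had the lower and narrower peak, except that the inner PLAGL1 peak was the wider. L3MBTL1, a chromatin compaction protein, went the opposite way, with 13.96-fold over the inner start and 8.88-fold over the outer. Only 1 library stands behind each of these pairs, so no error can be set on the difference. PLAGL1 and GRB10 also have starts outside the islands, 3 and 2 of them, without H3K4me3. In SNRPN the island start had 13.9-fold and its 2 other annotated starts upstream had no called H3K4me3 within 1000 bp, opposite to the order in PLAGL1, GRB10 and MEST.

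INPP5F, an inositol phosphatase, was the exception among the 9. Its outer start carried 13.4-fold H3K4me3 (chr10:119724633-119728447), whereas its inner start, the one printed above, had no deposited peak of any mark within 1000 bp. The nearest H3K4me3 peak with a q of 0.05 or below was 46554 bp away.

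H3K79me2, the mark of transcribed gene bodies, was strongest at UBE3A, at the overlapping NNAT and BLCAP, and at IGF2R. UBE3A, the ubiquitin ligase lost in Angelman syndrome and imprinted in neurons, had the highest fold, 4.74, in a peak of 87473 bp (chr15:25353564-25441036). Deposited H3K79me2 peaks covered 88.1% of its window, and 1.33% of protein-coding genes had more. Its H3K4me3 peak of 17.9-fold (chr15:25434290-25440057) lay wholly inside the H3K79me2 peak. On the paternal side of the same region, the small ribonucleoprotein gene SNRPN and its upstream reading frame SNURF shared 13.9-fold H3K4me3 (chr15:24954532-24959434) and 3.39-fold H3K79me2 (chr15:24955452-24969135, 13684 bp), with 3983 bp in common. Active marks were therefore called at both the paternally and the maternally expressed gene of the Prader-Willi and Angelman region.

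The pair NNAT and BLCAP, where neuronatin lies within an intron of the apoptosis-related BLCAP, shared 15.7-fold H3K4me3 (chr20:37521281-37529197, 7917 bp) and 4.68-fold H3K79me2 (chr20:37508746-37528851, 20106 bp). The window of NNAT was covered whole by H3K79me2. Since the 2 records overlap, these peaks cannot be divided between the genes.

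IGF2R, the mannose 6-phosphate receptor that removes IGF2, had 15.4-fold H3K4me3 (chr6:159966561-159971141) and 4.03-fold H3K79me2 over 48029 bp (chr6:159968494-160016522). Its antisense RNA AIRN had no H3K4me3 call, only a deposited peak of 1.97-fold. The H3K79me2 call of AIRN was the IGF2R peak, which covered its whole window. GRB10 had 2 long H3K79me2 peaks, of 45548 bp at 3.45-fold and 42858 bp at 2.84-fold, and the first covered the whole inner H3K4me3 peak.

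**Figure D4:**
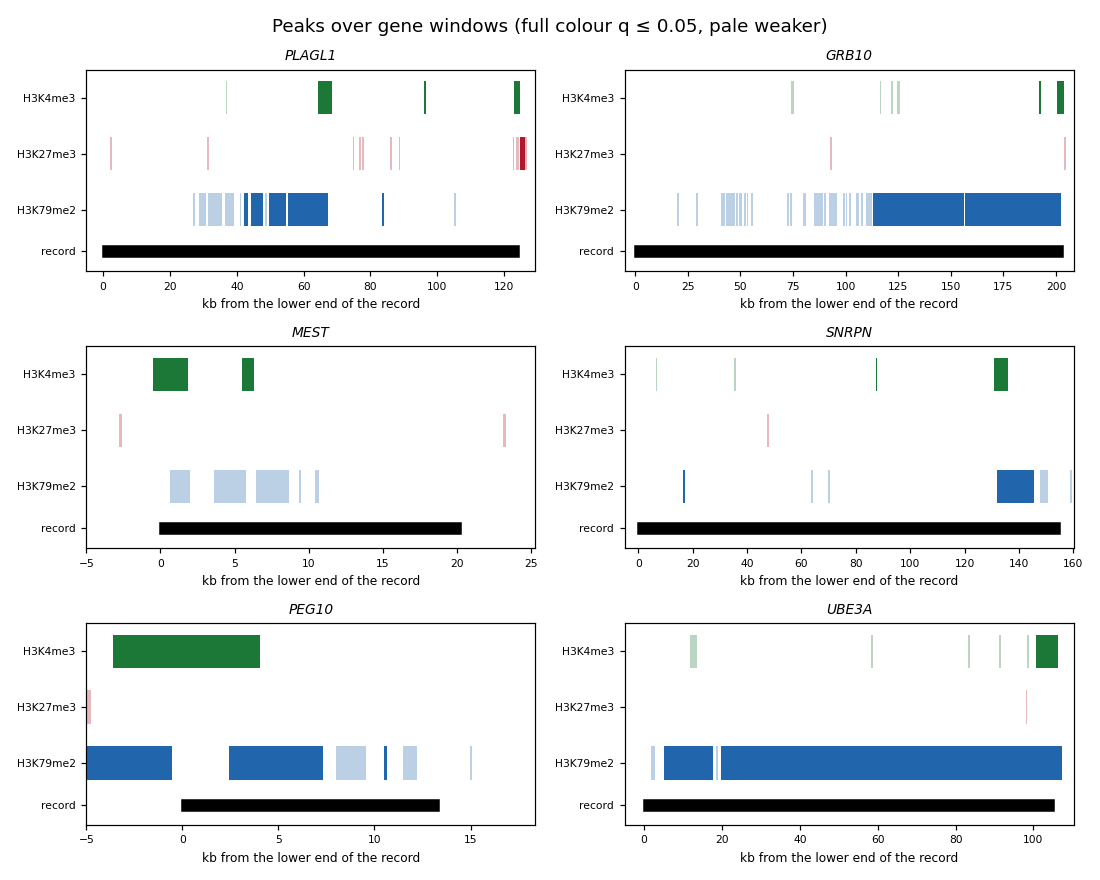
Peaks of H3K4me3, H3K27me3 and H3K79me2 over the records (black) of 6 imprinted genes and 5 kb on each side, in kb from the lower end of the record, with full colour for a q of 0.05 or below and pale for weaker peaks. Very narrow peaks are drawn wider than their length so that they can be seen; peaks are cut at the window. H3K79me2 fills 88.1% of the UBE3A window, and PLAGL1, GRB10 and MEST each show an inner and an outer H3K4me3 peak.

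The remaining genes with both active marks included those with the lowest H3K79me2 folds of the 16, below the median of 3.34 over members with the call in all but ZDBF2. PEG10, a gag-pol-like protein needed for the placenta, and SGCE, epsilon-sarcoglycan, shared a bidirectional H3K4me3 peak of 12.6-fold (chr7:94652712-94660383, 7672 bp). H3K79me2 ran out from it on both sides, at 2.81-fold over 11172 bp toward SGCE and 2.96-fold over 4935 bp toward PEG10. ZDBF2 (13.2-fold H3K4me3, 3.38-fold H3K79me2) and INPP5F (3.11-fold H3K79me2) were similar. TRAPPC9, a vesicle trafficking subunit, had 14.5-fold H3K4me3 at its end and 2.68-fold H3K79me2 over 16825 bp there, beside a peak of 161 bp at 2.85-fold. PLAGL1 and HYMAI shared 2.83-fold H3K79me2 over 11938 bp (chr6:143995736-144007673), next to the inner start.

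PHLDA2, a PH domain protein that limits placental growth, had the highest H3K4me3 fold of all 38 genes, 21.8 (chr11:2926069-2930959, 4891 bp), with 3.30-fold H3K79me2. The transporter SLC22A18 was counted at the same values only through its flank, since that peak begins 823 bp outside its record. At its own start SLC22A18 had 9.86-fold H3K4me3 (chr11:2901633-2904881) and no H3K79me2 peak with a q of 0.05 or below within 20000 bp.

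H3K4me3 was the only call at 7 genes: H19, MEST, L3MBTL1, DIRAS3, NAP1L5, FAM50B and PEG13. DIRAS3, a Ras-family growth suppressor, had 6.64-fold (chr1:68049942-68050854) and no deposited peak of another mark. NAP1L5, of the nucleosome assembly family, had 10.6-fold (chr4:88697021-88698185) and FAM50B, a retrotransposed copy of FAM50A, 7.89-fold (chr6:3848290-3850153). H19, the growth-restraining RNA, had a weak peak of 4.07-fold (chr11:2001924-2002918) lying 658 bp outside its record and one of 3.02-fold inside. PEG13, a non-coding RNA in an intron of TRAPPC9, was counted through a 277 bp peak of 2.80-fold at 4425 bp from its record. The PEG13 call thus rests on its flank alone, and that of H19 on weak peaks in its flank and its record.

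H3K27me3 was strongest at IGF2, the fetal growth factor. Of 19 deposited H3K27me3 peaks in its window, 12 had a q of 0.05 or below, and the strongest reached 9.24-fold (chr11:2137338-2139182, 1845 bp, −log10 q 13.9). The next were 6.54-fold (chr11:2139230-2141215) and 6.16-fold (chr11:2143106-2146170). Together the deposited peaks covered 14305 of 30450 bp (46.98%), and 119 of 19126 protein-coding genes (0.622%) had more. The 1 called H3K4me3 peak of IGF2 was weak, 3.08-fold (chr11:2137762-2139376; a second deposited peak had 2.19-fold), and shared 1421 bp with the strongest H3K27me3 peak. IGF2 had no deposited H3K79me2 peak. Its neighbour H19 carried no H3K27me3 call, with 1 weaker deposited peak.

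In the windows of KCNQ1 and KCNQ1OT1, no called H3K4me3 peak shared bases with a called H3K27me3 peak. KCNQ1 encodes a potassium channel of heart and epithelia, and KCNQ1OT1 is the antisense RNA from its intron that silences neighbouring genes on the paternal copy. CDKN1C, a cell cycle inhibitor of the same domain and no member of the list, differed: its H3K4me3 (14.05-fold) shared bases with H3K27me3 (2.98-fold), and it is named after its values were seen. The H3K4me3 peak at the upper end of the KCNQ1OT1 record reached 14.1-fold (chr11:2696734-2701361, 4628 bp), higher than the 4.27-fold (chr11:2444685-2445261, 577 bp) at the end of KCNQ1 itself. H3K27me3 was called in 21 peaks in the KCNQ1 window and in 15 of the KCNQ1OT1 window, up to 5.36-fold (chr11:2608351-2608656). In the KCNQ1OT1 window those peaks lay toward the other end of the record from the H3K4me3 peak. KCNQ1OT1 had 9 deposited H3K79me2 peaks next to its H3K4me3 peak, of which 0 had a q of 0.05 or below.

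At 3 genes with strong H3K4me3, H3K27me3 was a small addition. PLAGL1 had 4 H3K27me3 peaks just outside its outer end, up to 5.01-fold, and one of 315 bp shared 235 bp with the outer H3K4me3 peak. PPP1R9A, the synaptic scaffold neurabin, had 16.7-fold H3K4me3 (chr7:94907237-94909476) with a 319 bp H3K27me3 peak of 4.03-fold inside it, 920 bp from the start. ZDBF2 had a 286 bp H3K27me3 peak of 3.46-fold inside its H3K4me3 peak (chr2:206274029-206276950). SGCE had 1 H3K27me3 peak of 170 bp at 3.76-fold inside its record, away from its H3K4me3. The potassium channel KCNK9 had 3.70-fold H3K27me3 in 6 called of 33 deposited peaks that covered 7.96% of its window, and a 3.42-fold H3K4me3 peak 2422 bp outside its record.

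H3K27me3 alone was called at DLK1, RTL1, MEG8 and MKRN3, all at low folds. DLK1, a non-canonical Notch ligand, had 1 peak of 431 bp at 3.46-fold (chr14:100729849-100730279). RTL1, a gag-pol-like placental protein, and MEG8, a host RNA of small nucleolar RNAs, shared their strongest peak, 3.56-fold over 175 bp (chr14:100904152-100904326), 430 bp before the RTL1 start. RTL1 had 5 called peaks and deposited peaks over 12.7% of its window. MKRN3, a ubiquitin ligase that holds back puberty, was counted only through a 234 bp peak of 3.58-fold at 4631 bp from its record.

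**Figure D5:**
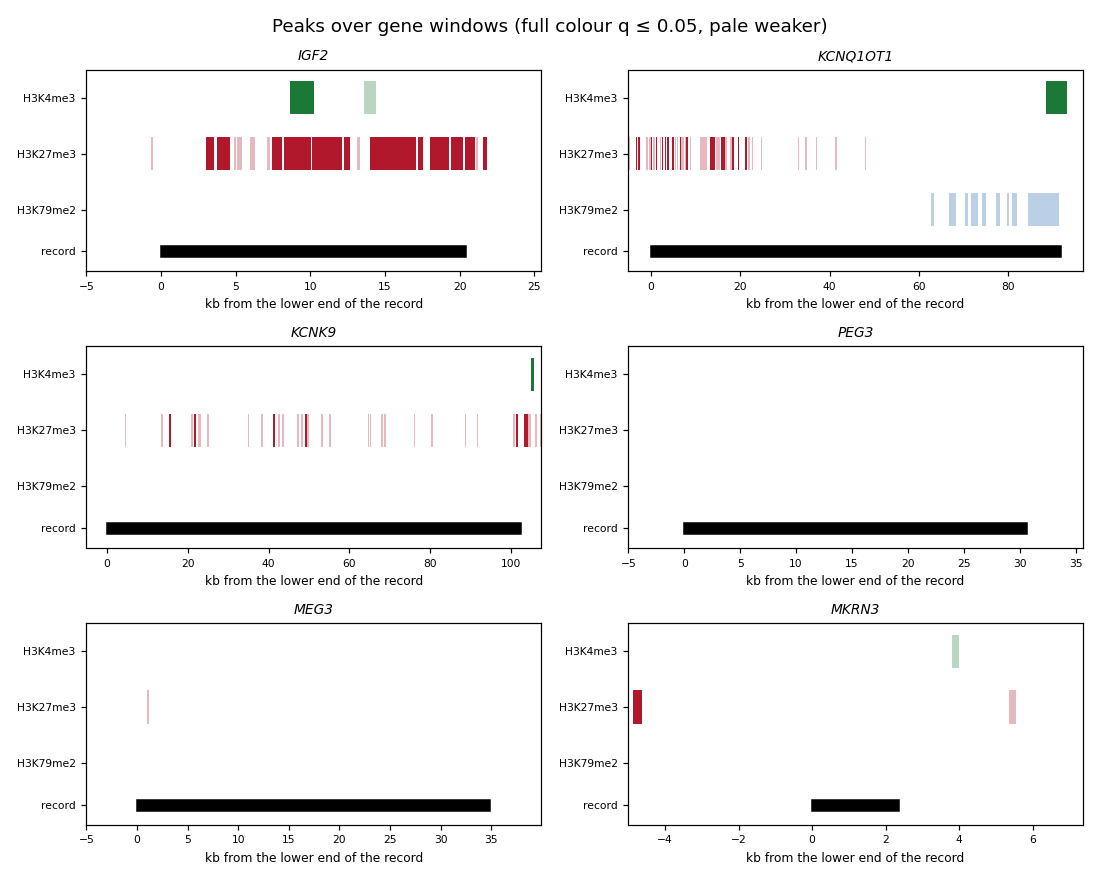
Peaks of the 3 marks over the records (black) of 6 imprinted genes and 5 kb on each side, in kb from the lower end of the record; full colour marks a q of 0.05 or below and pale weaker peaks, and very narrow peaks are drawn wider than their length. IGF2 holds 12 called H3K27me3 peaks, KCNQ1OT1 has H3K4me3 at one end and H3K27me3 toward the other, and PEG3 has no deposited peak.

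Some imprinted genes were without any called mark. PEG3, a zinc finger protein linked to maternal behaviour in mice, and NDN, the MAGE family protein necdin, had 0 deposited peaks of any mark, at any strength. Among protein-coding genes, 2.01% of those in the window class of PEG3 (20000 to 50000 bp) and 8.93% of those in the class of NDN (under 20000 bp) were likewise empty. Around PEG3 the nearest deposited H3K4me3 peaks were 213008 bp before and 263061 bp after the record, and the nearest H3K27me3 peaks 56694 bp and 114453 bp away. ZIM2, which overlaps PEG3, had only 2 deposited H3K79me2 peaks, the stronger of 150 bp and 2.65-fold, 1761 bp outside the record. In its window class, 0.22% of protein-coding genes lacked both H3K4me3 and H3K27me3 at any deposited strength.

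The long non-coding RNA MEG3 and the MAGE family gene MAGEL2 each had 1 deposited peak, both weaker than the threshold: H3K27me3 of 2.31-fold at MEG3 and H3K4me3 of 2.14-fold at MAGEL2. The MEG3 start is shown because it lies in a CpG-containing region, with an observed to expected ratio of 0.66, yet the nearest called H3K4me3 peak was 78172 bp away.

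MEG3, chr14:100825858-100826107, plus strand: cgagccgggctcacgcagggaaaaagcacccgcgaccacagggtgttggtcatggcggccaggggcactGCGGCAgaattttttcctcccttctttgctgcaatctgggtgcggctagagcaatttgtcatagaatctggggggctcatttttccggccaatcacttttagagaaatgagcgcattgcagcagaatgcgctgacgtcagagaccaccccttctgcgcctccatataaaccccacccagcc

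NDN had a higher ratio still, 0.97, and its nearest called H3K4me3 peak was 154868 bp from its start. In the 15q11 cluster, the genes NDN, MAGEL2 and MKRN3 thus had no H3K4me3 call, while SNRPN, SNURF and UBE3A had 13.9 to 17.9-fold. Called H3K27me3 was far from the latter group: the nearest called peak was 1393944 bp from the SNURF start and 1456954 bp from the nearest UBE3A start. Over all protein-coding starts that distance had a median of 64997 bp, and 0.605% of starts were farther than 1000000 bp. The SNURF and UBE3A starts lie in the same stretch without called H3K27me3, so their distances are not independent. Weaker deposited H3K27me3 peaks lay in the windows of SNRPN (2.69-fold) and UBE3A (2.31-fold).

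Other imprinted genes, a list of 36 that were all found, had H3K4me3 at 26 (72.2%, against 79.3% of protein-coding genes), H3K79me2 at 18 (50%, against 56.9%) and H3K27me3 at 16 (44.4%, against 25.6%). H3K4me3 and H3K27me3 were both called at 15 (41.7%, against 17.3%) and shared bases at 6 (16.7%, against 6.53%). On both counts with H3K27me3 their share was above that of the 38 genes, 31.6% and 21.1%, a difference that was not tested. This list also holds non-coding genes, such as GNAS-AS1, and was not split by biotype or window length. H3K27me3 was called at 18.7% of protein-coding genes with windows of 20000 to under 50000 bp and at 55.9% with 150000 bp or more. The highest H3K4me3 folds were 20.97 at OSBPL5, 20.3 at NAP1L4, 20.1 at TSSC4, 20.1 at CASD1 and 18.9 at HERC3. For H3K27me3 they were 9.24 at IGF2-AS, which is the IGF2 peak, 5.77 at MAGI2, 5.76 at KLF14, 5.72 at ASB4 and 5.003 at both GNAS and DLX5. GNAS, which encodes a stimulatory G protein subunit, had the highest H3K79me2 fold, 5.71.

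A further list held 21 genes that act on imprints or on DNA methylation, among them TET1, TET2 and TET3, which do not set or keep imprints. H3K4me3 was called at 15 of the 21 (71.4%, against 79.3% of protein-coding genes) and H3K79me2 at 13 (61.9%, against 56.9%). H3K27me3 was called at 4 (19%, against 25.6%). The de novo DNA methyltransferases DNMT3A and DNMT3B had 26.6-fold and 22.6-fold H3K4me3 without an H3K79me2 call, and the maintenance enzyme DNMT1 had 20.8-fold with 4.90-fold H3K79me2. ZNF445 had 14.6-fold H3K4me3 and 3.48-fold H3K79me2, and ZFP57 had no called mark. TRIM28, the corepressor both recruit, had all 3 marks in its window, at 21.3-fold H3K4me3, 5.14-fold H3K79me2 and 7.70-fold H3K27me3. Its called H3K4me3 and H3K27me3 peaks shared no bases.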

How the data were processed

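Peak lists of 3 ChIP-seq libraries of MCF10A, 1 per mark, were used. The submitters' processing notes name the aligner Bowtie2 (2.3.1), the peak caller MACS2 (2.1.1) and hg38. For the control sample and for duplicate reads, the treatment was not given in the sources used here. In the authors' lists, each peak has a fold enrichment (a ratio to the background that the caller modelled) and −log10 p and q values. Peaks were called per library, with 0.05 as the p threshold in the peak names. The H3K4me3 and H3K79me2 lists have the broad layout and the H3K27me3 list the narrow one, per the deposited columns, which can break a wide domain into short peaks. On the autosomes 65793, 353923 and 109105 peaks were deposited for H3K4me3, H3K27me3 and H3K79me2, of which 32166, 95254 and 15585 had a q of 0.05 or below.

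Gene records, starts and sequences came from RefSeq tables (GRCh38.p14). Overlaps were computed with Python 3.11.15, numpy 2.4.6 and pandas 2.3.3, and plots with matplotlib 3.10.9. The overlap code was tested on simulated data. The background is the same call over all autosomal genes of the biotype. The list of other imprinted genes, which mixes biotypes, was set beside protein-coding genes. All 38 members are named. Of the other lists, up to 5 genes per mark with the highest fold are named, along with single genes chosen after their values were seen (MEG3 and NDN for their CpG ratio, and ZNF445, ZFP57 and DNMT3A with its relatives). The members and lists were chosen with earlier results of these data known. Alternatives were other thresholds, windows, overlaps, joined H3K27me3 peaks and, added after seeing the data, other distances at starts.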

Additional observations from a re-analysis of the deposited data

How the results depend on the processing

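The main counts were 28 genes with H3K4me3, 12 with H3K27me3, 18 with H3K79me2, 8 with H3K4me3 and H3K27me3, 4 where these shared bases, 16 with H3K4me3 and H3K79me2, and 4 with none. H3K4me3 stayed between 24 and 33 under every alternative run. With all deposited peaks the other counts were 25 for H3K27me3, 27 for H3K79me2, 23 for H3K4me3 with H3K27me3, 9 for shared bases, 26 for H3K4me3 with H3K79me2 and 2 for none; over all protein-coding genes H3K27me3 then rose likewise, from 25.6% to 64.4%. With a −log10 q of at least 5, H3K27me3 was left at 1 (IGF2), H3K79me2 at 3 (UBE3A, NNAT and BLCAP), H3K4me3 with H3K27me3 at 0, shared bases at 0, H3K4me3 with H3K79me2 at 3 and none at 13, where 3.5% of protein-coding genes kept H3K27me3, 17.6% kept H3K79me2 and 24.7% had none. With a fold of at least 5 these were 4, 0, 3, 0, 0 and 13, with H3K27me3 at 5.84% and H3K79me2 at 5.26% of protein-coding genes. Genes with none numbered 7 with the record alone (17.1% of protein-coding genes) or with 1000 bp around it (15.6%). They numbered 8 where at least 500 bp had to be covered (15.6%). All deposited H3K27me3 peaks, of any q and found at 25 genes, were also joined across gaps of up to 3000 bp. Keeping only joined regions of 10000 bp or longer that peaks fill to 25% or more lowered that count. Left were 3 genes with H3K27me3 (IGF2, KCNQ1 and KCNQ1OT1), 3 with H3K4me3 too, 1 with shared bases and 8 with none. Over all protein-coding genes these shares were 7.36%, 4.15%, 2.25% and 16.5%. Within 1000 bp of the starts, or of either record end for the 14 genes without an annotated start, there were 6, 3, 2 and 9. KCNQ1OT1 is 1 of these 3, with the 2 marks at opposite ends of its record. Among protein-coding genes treated alike, the shares were 9.71%, 5.3%, 4.41% and 25.7%. The median H3K4me3 fold at starts in maternally methylated islands was 9.26, and 10.6 within 5000 bp. At other starts it was 15.6, with 15.7 where the peak covers the start and 14.4 with all deposited peaks. With other flanks, 10 of 174 comparisons of a member's highest fold lost the peak (H3K4me3 at KCNK9 and PEG13, H3K27me3 at MKRN3 and PLAGL1, H3K79me2 at SLC22A18 and ZIM2), and 6 of the other 164 changed. No paired analysis was possible because each mark has 1 library and no replicate, which also left no replicate to leave out.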
